A study of Mus musculus with 27 samples.

Results

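The transcripts of 8 cardiac ion channel genes were followed in mouse hearts from E11.5 (embryonic day) to 8 weeks: Hcn4, Cacna1g, Cacna1h, Kcnj2, Kcnj3, Kcnj5, Kcnq1 and Kcnd2. They were chosen by name as pacemaker and potassium channel genes and as T-type calcium channel genes, with earlier results of these data known. All 8 were found among 24025 genes of the bulk table and among 19010 genes of the single-cell table. No sodium channel gene is among them.

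The mice, of strain C57BL/6, carried deletions of Hand2as, a long non-coding RNA gene also known as Hand2os1 or Uph, located beside Hand2, which encodes a transcription factor of the developing heart. Allele F removes the full length of that gene and allele D its distal part. Bulk libraries of poly(A) RNA came from whole hearts at E11.5 (3 F/+ and 3 F/F), from ventricles at E16.5 (3 F/+ and 3 F/F) and from cardiomyocytes of 8-week-old animals (5 +/+, 2 D/+ and 6 D/D). Embryonic bulk controls were heterozygous, so no wild-type bulk library exists at those stages. Single-cell libraries were made at E11.5 from +/+ and F/F embryos of heterozygote intercrosses, with the viable sorted cells of 6 hearts pooled per genotype and 1 library each. Whether the bulk replicates came from separate animals is not stated, so the p-values measure the spread between these samples.

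Heart rhythm depends on channels with distinct tasks. HCN channels carry the funny current that drives spontaneous depolarization in pacemaker cells, and HCN4 is the main form of the sinoatrial node. T-type calcium channels, formed by CACNA1G and CACNA1H, open at negative voltages and add to pacemaking and to early embryonic excitation. Potassium channels then set the resting potential and end the action potential: KCNJ2 carries the inward rectifier current of the working ventricle, KCNJ3 and KCNJ5 assemble into the channel through which acetylcholine slows the atria and the node, KCNQ1 carries the slow delayed rectifier and KCND2 the fast transient outward current.

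The genes lie on 6 chromosomes in the RefSeq annotation of GRCm38.p6. Hcn4 occupies chr9:58822949-58863175 and Kcnj5 chr9:32314706-32344380. Cacna1g lies at chr11:94408391-94474400, Kcnj2 at chr11:111066164-111076825, Cacna1h at chr17:25374285-25436334 and Kcnj3 at chr2:55411798-55598145. Kcnq1 lies at chr7:143106877-143427050 and Kcnd2 at chr6:21215346-21729805. In the GENCODE M21 annotation, exons of 3 of these genes overlap exons of a gene on the opposite strand: Cacna1h with Tpsg1, Kcnj3 with Gm26794 and Kcnq1 with the imprinted antisense transcript Kcnq1ot1. The bulk kit marked strand, but whether the counting used it is not given in the sources used here. Kcnq1ot1 itself stood at no more than 0.46 FPKM in any bulk library.

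Kcnj2, Kcnj3, Kcnj5 and Kcnd2 were the members that were higher in 8-week cardiomyocytes than in E16.5 ventricle (below), and the 250 bases before the annotated start of each are shown because these genes moved together. The sequences are from RefSeq (GRCm38.p6), 5′ to 3′ on the gene's strand, and capitals mark matches to the E-box CANNTG, the motif that basic helix-loop-helix factors such as HAND2 can bind. The windows are chr11:111065914-111066163 (plus strand), chr2:55435720-55435969 (plus), chr9:32344345-32344594 (minus) and chr6:21215096-21215345 (plus).
Kcnj2: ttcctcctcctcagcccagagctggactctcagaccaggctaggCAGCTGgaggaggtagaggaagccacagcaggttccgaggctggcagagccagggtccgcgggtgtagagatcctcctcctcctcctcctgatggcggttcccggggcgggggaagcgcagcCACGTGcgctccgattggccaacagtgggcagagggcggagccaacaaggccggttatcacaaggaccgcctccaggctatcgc
Kcnj3: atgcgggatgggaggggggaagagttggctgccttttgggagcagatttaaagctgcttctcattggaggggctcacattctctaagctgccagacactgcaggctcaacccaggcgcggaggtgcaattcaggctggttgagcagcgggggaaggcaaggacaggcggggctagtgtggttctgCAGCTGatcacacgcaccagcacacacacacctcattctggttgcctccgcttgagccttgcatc
Kcnj5: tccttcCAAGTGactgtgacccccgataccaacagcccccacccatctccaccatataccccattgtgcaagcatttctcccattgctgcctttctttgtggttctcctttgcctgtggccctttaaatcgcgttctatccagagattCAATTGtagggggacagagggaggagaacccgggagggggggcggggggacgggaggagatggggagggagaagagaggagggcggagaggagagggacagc
Kcnd2: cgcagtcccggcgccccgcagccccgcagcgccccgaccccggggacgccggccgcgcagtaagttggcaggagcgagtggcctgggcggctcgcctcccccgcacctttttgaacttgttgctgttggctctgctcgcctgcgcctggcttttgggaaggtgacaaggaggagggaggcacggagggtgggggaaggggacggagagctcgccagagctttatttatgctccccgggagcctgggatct
Kcnj2 had 2 matches, at positions -206 and -84 from the start, Kcnj3 had 1 at -65, Kcnj5 had 2 at -244 and -102, and Kcnd2 had none. The motif reads the same on both strands, and 66.2% of 32851 promoter windows of this length in the table hold at least 1 match, so the presence of a match does not set these genes apart. The window of Kcnj3 lies inside the gene's full annotated span, before a later start, and that of Kcnj5 overlaps the end of its gene's span. GC content was 65.6% for Kcnj2, 58.4% for Kcnj3, 58.0% for Kcnj5 and 68.8% for Kcnd2, against a median of 52.4% over all windows.

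Bulk values are taken as FPKM, scaled by transcript length and library size (the table does not name its unit), so levels of different genes can be compared per length but read depth is unknown. Columns summed to between 334194 and 586795 FPKM. Transcripts of Hand2as (LOC102636514) were listed at 0 in all 6 E11.5 libraries, which therefore carry no check of genotype, at 0.37 to 1.40 FPKM in E16.5 F/+ and at 0 in E16.5 F/F. At 8 weeks they stood at 5.25 to 13.5 FPKM in 6 of 7 controls and at 0 to 2.67 in D/D, but the library labelled +/+ replicate 5 was listed at 0, against its label. Along the first principal component of the 8-week libraries, which holds 44.7% of their variance, that library and D/D replicate 6 stood far from the other 11 (scores of -54.8 and -54.2 against -16.2 to 34.2). Working heart muscle genes were abundant in every bulk group, and 18 cell barcode sequences were shared by the single-cell libraries.

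Expression of the pacemaker channel gene Hcn4 was highest in the E11.5 heart and fell by E16.5 in both genotypes. It measured 12.1, 20.2 and 9.14 FPKM in the F/+ hearts and 14.8, 11.3 and 15.9 FPKM in the F/F hearts at E11.5. At E16.5 it measured 4.10, 7.28 and 5.38 FPKM in F/+ ventricles and 4.89, 4.81 and 5.27 FPKM in F/F ventricles. In both genotypes every E11.5 heart lay above every E16.5 ventricle. The difference in log2(FPKM + 1) was -1.13 in F/+ (SE 0.26, limma adjusted p = 0.00272) and -1.32 in F/F (SE 0.26, limma adjusted p = 0.000978). The E11.5 libraries hold the atria and the sinus venosus, whereas the E16.5 libraries are ventricle, so stage and part of the heart cannot be told apart, nor in bulk RNA can fewer cells of a type and less RNA per cell. The summed FPKM of 7 sinus venosus marker genes moved with Hcn4, from 61.8 to 85.3 at E11.5 to 19.3 to 25 at E16.5. The atrial sum (1713 to 2646 against 506 to 663), the trabecular sum (1114 to 2393 against 457 to 656) and the haemoglobin share (10.4% to 29.7% against 0.651% to 2.42%) were lower at E16.5 too. Their part in the result was not tested.

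In 8-week cardiomyocytes Hcn4 was near the level of the E16.5 ventricle: 6.72, 5.63, 6.70, 5.90 and 6.53 FPKM in +/+, 5.73 and 7.72 in D/+, and 2.68 to 10.9 with a median of 6.34 in the 6 D/D libraries. The groups overlapped, and neither step from E16.5 passed the test (log2 difference 0.17, 95% interval -0.41 to 0.75, limma adjusted p = 0.591 for +/+ and 0.34, -0.22 to 0.90, limma adjusted p = 0.258 for D/D). Without D/D replicate 6, which had the lowest Hcn4 value, the D/D step was 0.55 with a limma adjusted p of 0.0170. The D/D step also passed under median-ratio scaling (0.70, limma adjusted p = 0.0232) and upper-quartile scaling (0.62, limma adjusted p = 0.0486).

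The T-type genes differed in their course to E16.5, and both were lower at 8 weeks. Cacna1g, the gene of the Cav3.1 channel, measured 3.01, 5.72 and 3.58 FPKM in F/+ and 0.69, 1.22 and 1.45 FPKM in F/F hearts at E11.5. It then measured 7.01, 10.4 and 9.34 FPKM in F/+ and 9.76, 9.88 and 9.76 FPKM in F/F ventricles at E16.5. All 6 E16.5 libraries lay above all 6 E11.5 libraries. The rise was 0.98 log2 units in F/+ (SE 0.23, limma adjusted p = 0.00341) and 2.37 in F/F (SE 0.23, limma adjusted p = 4.27e-06). While the marker sums given with Hcn4 fell, others rose from E11.5 to E16.5. The cardiomyocyte sum went from 6250 to 8988 FPKM to 15450 to 19195 FPKM. The mesenchymal sum went from 381 to 547 FPKM to 1192 to 1369 FPKM. Their part in the rises of Cacna1g and Kcnq1 was not tested. In 8-week cardiomyocytes Cacna1g measured 5.40, 5.68, 6.20, 5.42 and 4.68 FPKM in +/+ and 3.10 to 6.98 (median 4.64) in D/D. Both groups lay below their E16.5 counterparts without overlap, with log2 differences of -0.60 (SE 0.21, limma adjusted p = 0.0179) and -0.95 (SE 0.21, limma adjusted p = 0.000530). The fall in the +/+ step lost its call without E16.5 F/+ replicate 2 (limma adjusted p = 0.0907), without replicate 3 (0.0602) and under both scaling alternatives (0.300 and 0.161).

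Cacna1h, the gene of Cav3.2, was the more abundant T-type gene per length in every embryonic library. Its level measured 16.8, 29.2 and 12.9 FPKM in F/+ and 25.9, 10.1 and 19.99 FPKM in F/F at E11.5, and 14.5 to 17.7 FPKM in F/+ and 15.2 to 18.3 FPKM in F/F at E16.5. The stages overlapped, and the log2 differences of -0.16 and -0.04 did not pass the test (limma adjusted p = 0.681 and 0.931) and turned positive under median-ratio and upper-quartile scaling. At 8 weeks it measured 2.92, 3.33, 4.64, 6.56 and 3.71 FPKM in +/+, 0.51 and 5.31 in D/+ and 0.86 to 7.56 (median 4.75) in D/D. Every 8-week library lay below every embryonic one. The fall from E16.5 was -1.78 in +/+ (SE 0.47, limma adjusted p = 0.00265) and -1.92 in D/D (SE 0.45, limma adjusted p = 0.00106).

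The ratio of Cacna1g to Cacna1h within a library does not depend on the scaling between libraries. It ran from 0.179 to 0.277 in E11.5 F/+ hearts, from 0.0267 to 0.121 in E11.5 F/F hearts, from 0.482 to 0.588 in E16.5 F/+ and from 0.534 to 0.652 in E16.5 F/F ventricles. At 8 weeks it ran from 0.826 to 1.85 in +/+, was 10.2 and 1.33 in D/+ and ran from 0.410 to 3.86 in D/D. From E11.5 to E16.5 the geometric mean was 2.51-fold higher in F/+ and 9.38-fold higher in F/F, without overlap. With 3 against 3 libraries the two-sided exact permutation test cannot go below p = 0.1, which both steps reached. From E16.5 F/+ to 8-week +/+ the ratio was 2.51-fold higher without overlap (exact permutation p = 0.0179, 0.0833 after Benjamini-Hochberg adjustment over 14 ratio comparisons). The ratios of D/D and E16.5 F/F overlapped (exact permutation p = 0.131).

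**Figure D1:**
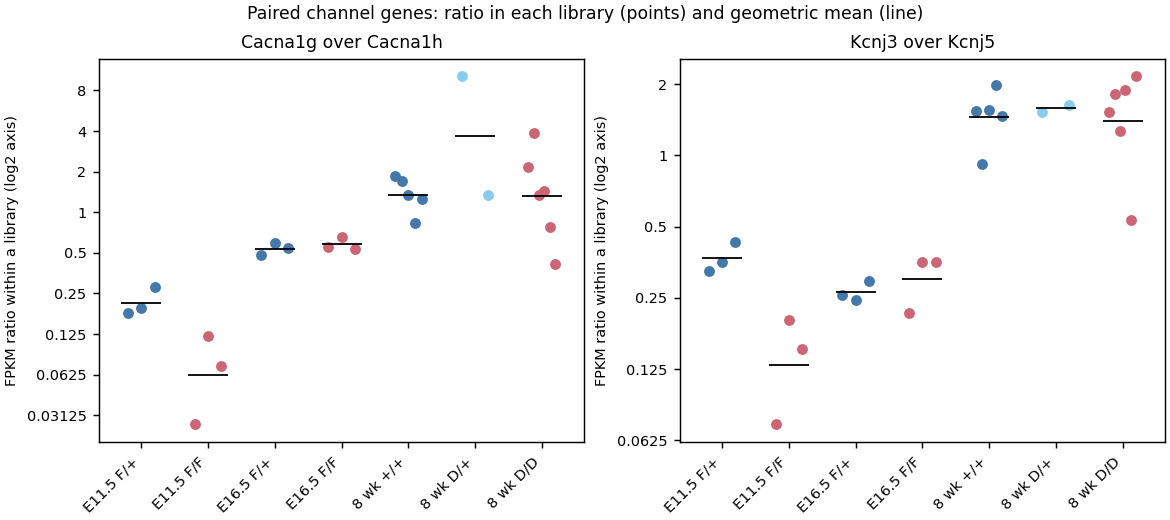
Ratio of FPKM within each bulk library on a log2 axis, for Cacna1g over Cacna1h (left) and Kcnj3 over Kcnj5 (right), with libraries as points, geometric means as lines, and groups by stage and genotype on the x axis. Both ratios lie below 1 in every embryonic library and above 1 in most 8-week libraries, and the E11.5 F/F hearts have the lowest values in both panels.

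Kcnj2, the inward rectifier gene of the ventricle, was low in the embryo and higher in adult cardiomyocytes. It measured 1.08, 0.29 and 0 FPKM in F/+ and 0.87, 0.62 and 1.30 FPKM in F/F at E11.5, and 0.74, 0.88 and 0.83 FPKM in F/+ and 0.53, 1.34 and 0.97 FPKM in F/F at E16.5. Its mean was below 1 FPKM over the embryonic libraries, so the embryonic comparisons did not test it. At 8 weeks it measured 5.17, 4.34, 4.90, 4.83 and 1.22 FPKM in +/+, 5.19 and 5.30 in D/+ and 1.81 to 4.41 (median 3.41) in D/D. The value of 1.22 belongs to the library labelled +/+ replicate 5, and the groups still did not overlap across the step from E16.5 for +/+ or for D/D. The rise was 1.40 log2 units for +/+ (SE 0.29, limma adjusted p = 0.000302) and 1.06 for D/D (SE 0.28, limma adjusted p = 0.00231). On the scale of mean FPKM the +/+ level was 5.01-fold that of E16.5 F/+.

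Of the subunits of the acetylcholine-gated channel, Kcnj3 (GIRK1) changed most in the step to 8 weeks. It measured 3.59, 5.86 and 5.17 FPKM in F/+ and 1.22, 2.20 and 3.22 FPKM in F/F at E11.5, and 2.35, 1.65 and 2.33 FPKM in F/+ and 1.32, 2.45 and 3.20 FPKM in F/F at E16.5. The fall to E16.5 passed the test in F/+ (log2 difference -0.91, SE 0.29, limma adjusted p = 0.0201). In F/F the difference was 0.06 (limma adjusted p = 0.890), with overlapping stages. At 8 weeks Kcnj3 measured 35.0, 22.1, 29.95, 26.3 and 13.4 FPKM in +/+, 26.2 and 33.6 in D/+ and 8.34 to 34.3 (median 23.9) in D/D. Every 8-week library exceeded every embryonic library. The rise from E16.5 was 3.03 log2 units in +/+ (SE 0.36, limma adjusted p = 8.04e-07) and 2.75 in D/D (SE 0.35, limma adjusted p = 1.54e-06), the largest of the 8 members in both steps, and mean FPKM was 12.02-fold and 9.78-fold that of E16.5.

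Kcnj5 (GIRK4) followed a shallower course with its lowest values at E16.5. It measured 11.03, 16.51 and 12.02 FPKM in F/+ and 16.7, 10.96 and 21.2 FPKM in F/F at E11.5, then 9.17, 6.73 and 7.88 FPKM in F/+ and 6.15, 6.89 and 9.06 FPKM in F/F at E16.5, with no overlap between stages. The fall was -0.66 in F/+ (SE 0.24, limma adjusted p = 0.0334) and -1.02 in F/F (SE 0.24, limma adjusted p = 0.00310). In 8-week cardiomyocytes it measured 22.8, 24.1, 19.2, 13.3 and 9.09 FPKM in +/+, 17.1 and 20.6 in D/+ and 7.26 to 18.8 (median 16.51) in D/D. The rise was 0.998 in +/+ (SE 0.29, limma adjusted p = 0.00558) and 0.93 in D/D (SE 0.28, limma adjusted p = 0.00696), although the lowest 8-week library of each group overlapped the E16.5 range. The F/+ falls of Kcnj3 and Kcnj5 to E16.5, like the +/+ fall of Cacna1g to 8 weeks, lost their calls under several settings. Without E11.5 F/+ replicate 2 the limma adjusted p of Kcnj3 and Kcnj5 was 0.0678 and 0.125. Without E16.5 F/+ replicate 2 it was 0.0780 and 0.118, and without E16.5 F/+ replicate 3 that of Kcnj5 was 0.0765. Under median-ratio scaling that of Kcnj5 was 0.114, and under upper-quartile scaling they were 0.0596 and 0.176.

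The ratio of Kcnj3 to Kcnj5 ran from 0.325 to 0.430 in E11.5 F/+, from 0.0729 to 0.201 in E11.5 F/F, from 0.245 to 0.296 in E16.5 F/+ and from 0.215 to 0.356 in E16.5 F/F. In 8-week libraries it ran from 0.918 to 1.97 in +/+, was 1.53 and 1.63 in D/+ and ran from 0.531 to 2.15 in D/D, so all 13 lay above all 12 embryonic ones. The geometric mean was 5.47-fold higher in +/+ than in E16.5 F/+ (exact permutation p = 0.0179) and 4.68-fold higher in D/D than in E16.5 F/F (exact permutation p = 0.0119). After adjustment over the 14 ratio comparisons both were 0.0833, so neither passed 0.05. Per length, Kcnj5 exceeded Kcnj3 in every embryonic library, and Kcnj3 exceeded Kcnj5 in 11 of the 13 8-week libraries. The exceptions were +/+ replicate 2, at 0.918, and D/D replicate 5, at 0.531.

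Kcnq1, the pore gene of the slow delayed rectifier, rose before E16.5 and then held its level. It measured 2.79, 4.52 and 3.49 FPKM in F/+ and 3.66, 3.09 and 2.47 FPKM in F/F at E11.5, against 23.6, 20.04 and 22.0 FPKM in F/+ and 21.5, 20.6 and 23.4 FPKM in F/F at E16.5. Mean FPKM was 6.07-fold higher at E16.5 in F/+ and 7.11-fold higher in F/F. The rise was 2.33 log2 units in F/+ (SE 0.18, limma adjusted p = 4.93e-07) and 2.497 in F/F (SE 0.18, limma adjusted p = 3.08e-07). At 8 weeks it measured 25.02, 23.7, 28.1, 26.5 and 28.2 FPKM in +/+, 27.4 and 30.3 in D/+ and 12.6 to 29.99 (median 19.0) in D/D. The +/+ values all lay above those of E16.5 F/+, but the log2 difference of 0.26 did not pass the test (limma adjusted p = 0.218) unless libraries were rescaled (0.00487 by median ratio, 0.0124 by upper quartile). For D/D the difference was -0.14 (limma adjusted p = 0.472), with a positive sign under both scalings.

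Kcnd2, a pore gene of the fast transient outward current, was below 1 FPKM in every embryonic library except E16.5 F/F replicate 3 and was not tested between embryonic stages. It measured 0.29, 0.92 and 0.60 FPKM in F/+ and 0.98, 0.36 and 0.14 FPKM in F/F at E11.5, and 0.64, 0.58 and 0.87 FPKM in F/+ and 0.91, 0.75 and 1.03 FPKM in F/F at E16.5. At 8 weeks it measured 3.78, 2.97, 4.30, 4.85 and 2.17 FPKM in +/+, 5.36 and 3.85 in D/+ and 0.85 to 4.76 (median 2.95) in D/D. All +/+ libraries lay above E16.5, whereas D/D replicates 5 and 6, at 0.95 and 0.85 FPKM, overlapped it. The rise was 1.41 log2 units in +/+ (SE 0.32, limma adjusted p = 0.000844) and 0.87 in D/D (SE 0.31, limma adjusted p = 0.0188). Without E16.5 F/F replicate 2 the D/D rise had a limma adjusted p of 0.0630.

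**Figure D2:**
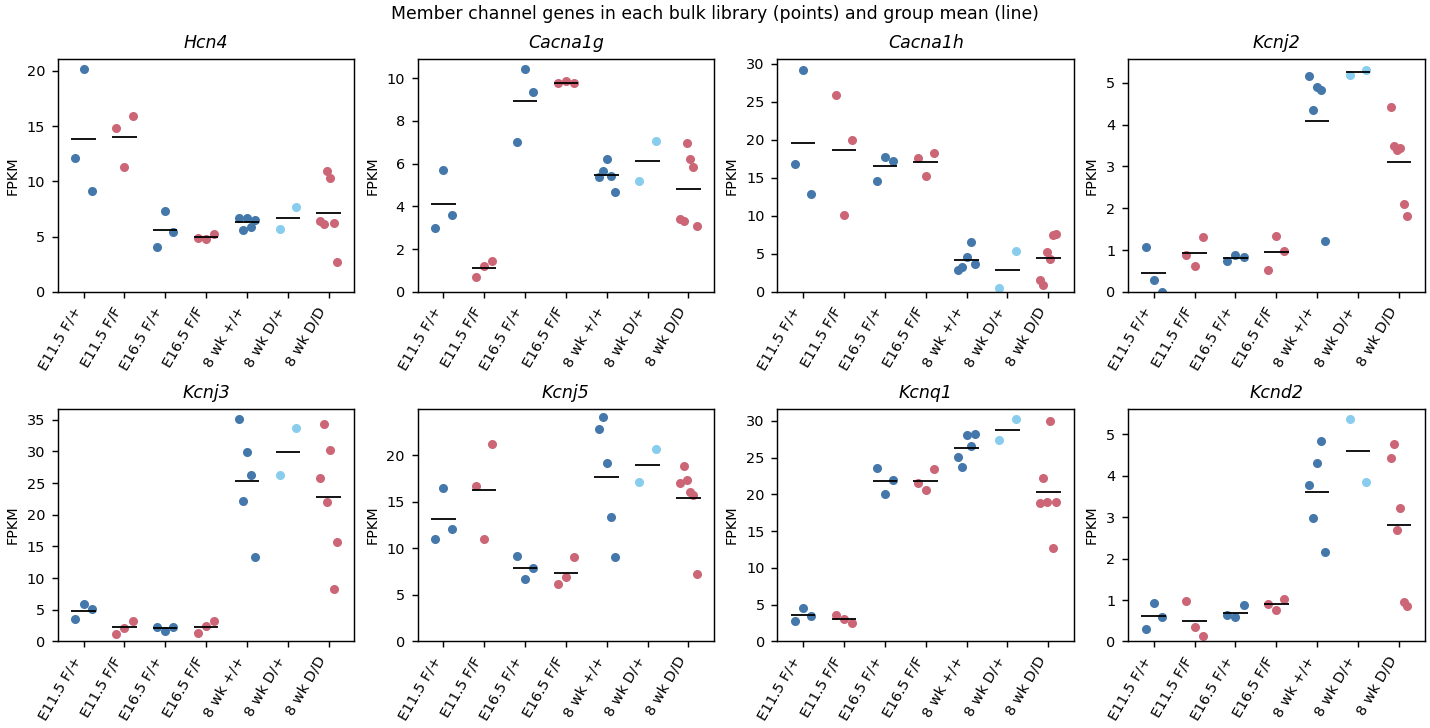
FPKM (y axis, from 0) of the 8 channel genes in each of 25 bulk libraries (points) with the group mean (line), by stage and genotype; blue marks controls, light blue D/+ and red F/F or D/D. Kcnj2, Kcnj3 and Kcnd2 are low in the embryo and high at 8 weeks, Kcnq1 rises before E16.5, and Cacna1h is low in all 8-week libraries.

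In all, 5 of 6 tested members were called between E11.5 and E16.5 in F/+ (2 higher, 3 lower), where 18.3% of 11423 genes were higher and 31.2% lower, and 4 of 6 in F/F (2 higher, 2 lower), where 18.8% were higher and 31.2% lower. Their median log2 differences of -0.41 and 0.01 stood beside medians of -0.18 and -0.16 over all genes tested. From E16.5 to 8 weeks 6 of 8 were called in +/+ and 6 of 8 in D/D (4 higher and 2 lower in each). Of 10932 genes, 25.2% were higher and 44.3% lower in the first step and 25.5% and 44.7% in the second. The members had medians of 0.63 and 0.61 beside -0.32 for all genes in both. Groups without overlap were found for 5 and 4 of 6 members in the embryonic steps (59.9% and 58.5% of genes) and for 6 and 4 of 8 in the steps to 8 weeks (65.8% and 60.8%). The +/+ and D/D steps share no library, and they called the same members. They do share the estimate of the spread and the change of preparation, so they are not independent checks. The 8-week step joins a change of stage, isolation of cardiomyocytes, and allele, and these cannot be told apart. Gapdh, a gene used by every cell, was listed at no more than 5.09 FPKM in the embryonic libraries. At 8 weeks it was listed at no less than 980.45 FPKM. Whether embryonic and 8-week libraries were counted alike is not given in the sources used here. The part of any such difference in the step was not tested.

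Scaling between libraries set the balance of rises and falls. Of the genes called from E11.5 to E16.5 in F/+, 2088 were higher and 3568 lower as deposited, 2972 and 2824 after median-ratio scaling, and 3072 and 2583 after upper-quartile scaling. In F/F the numbers were 2151 and 3561 as deposited, 3001 and 2801 by median ratio and 3272 and 2405 by upper quartile. For the 8-week +/+ step they were 2760 and 4840 as deposited, 3684 and 3376, and 3392 and 3748. For the D/D step they were 2789 and 4890 as deposited, 3831 and 3463, and 3543 and 3788. The medians of all genes moved to 0.01 and 0.05 in F/+, 0.02 and 0.11 in F/F, 0.04 and -0.06 in +/+, and 0.05 and -0.03 in D/D. The rises of Cacna1g and Kcnq1 to E16.5 and of Kcnj2, Kcnj3, Kcnj5 and Kcnd2 to 8 weeks, and the falls of Hcn4 to E16.5 and of Cacna1h to 8 weeks, kept direction and call under both scalings.

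**Figure D3:**
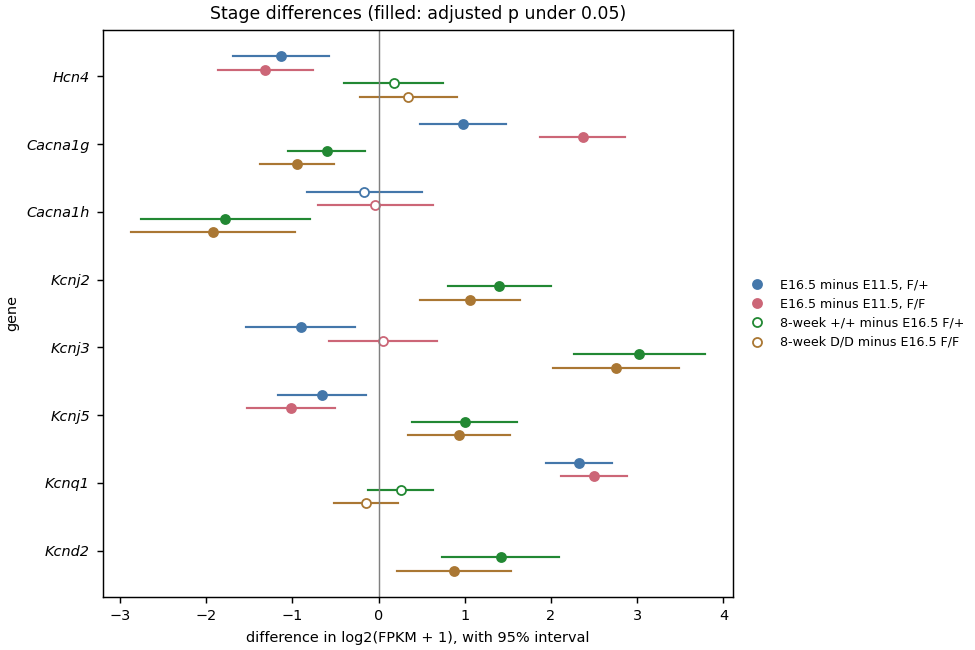
Difference in log2(FPKM + 1) between stages (x axis) for each gene (y axis), with 95% interval, in 4 comparisons; filled circles have a limma adjusted p under 0.05. Kcnj2 and Kcnd2 have no embryonic point because they were not tested there. Kcnj3 shows the largest 8-week rise (3.03 in +/+) and Kcnq1 an embryonic rise of 2.33 in F/+ and 2.497 in F/F.

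A list of 45 other cardiac channel, accessory subunit and regulator genes gave the setting. From E11.5 to E16.5, 16 rose and 2 fell of 25 tested in F/+, and 16 rose and 1 fell in F/F, with median log2 differences of 1.08 and 0.95. The largest rise in both was that of Kcnip2, the accessory subunit of Kv4 channels such as KCND2, from 0.29 to 25.8 FPKM in F/+ (4.40 log2 units, SE 0.21, limma adjusted p = 1.28e-08), well before Kcnd2 itself. The muscarinic receptor gene Chrm2, which lies upstream of KCNJ3 and KCNJ5 in vagal signalling, rose from 0.867 to 9.59 FPKM. Rises of Kcnj8, of a KATP channel pore, from 1.75 to 12.3 FPKM and of the inward rectifier gene Kcnj12 from 1.19 to 8.91 FPKM followed. The calcium channel subunit gene Cacna2d2 fell from 44.4 to 7.07 FPKM, and the potassium channel gene Kcnk6 from 4.74 to 2.66 FPKM.

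From E16.5 to 8 weeks 17 of 28 tested genes of that list rose and 6 fell in +/+, and 18 rose and 6 fell in D/D. Hcn2 rose most, from 0.367 to 23.6 FPKM in +/+ (4.16 log2 units, SE 0.30, limma adjusted p = 9.56e-10) and from 0.193 to 23.1 FPKM in D/D. Among pacemaker channel genes the order per length was thus Hcn4 above Hcn2 in the embryo and Hcn2 above Hcn4 in 8-week cardiomyocytes. The background potassium channel gene Kcnk3 rose from 15.7 to 165 FPKM in +/+, the sodium channel subunit gene Scn4b from 0.0733 to 7.80 FPKM and the KATP subunit gene Abcc9 from 8.93 to 61.6 FPKM. Kcne1, whose product pairs with KCNQ1 in the slow delayed rectifier, fell from 26.2 to 2.32 FPKM in +/+ (-3.13 log2 units, SE 0.32, limma adjusted p = 1.29e-07), after a rise from 6.53 FPKM between E11.5 and E16.5. The level of Kcnq1 did not follow it down. Kcnj4, Cacna2d2 and Kcnk6 were the next largest falls.

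In the bulk fits made for each stage, no tested member was called between genotypes. Hand2as transcripts were listed at 0 in E11.5 F/+ as well as F/F hearts. An effect of their loss was not tested at that stage. In E11.5 hearts 0 of 6 tested members were called between F/F and F/+, against 0.00870% of 11491 genes (1 gene). The largest differences were in Cacna1g and Kcnj3. Mean Cacna1g was 1.12 FPKM (SD 0.39) in F/F against 4.10 (SD 1.43) in F/+. The 3 F/F hearts lay below the 3 F/+ hearts, with a log2 difference of -1.25 (SE 0.35, limma adjusted p = 0.999). Mean Kcnj3 was 2.21 FPKM in F/F against 4.87 in F/+, also without overlap, with a log2 difference of -0.90 (SE 0.34, limma adjusted p = 0.999). These 2 members were the ones without overlap, as were 9.23% of all genes, and the ones with an unadjusted p under 0.05, as were 4.37%. With all 25 bulk libraries sharing 1 estimate of the spread, Cacna1g had a limma adjusted p of 0.0285, and 24 genes were called in place of 1.

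The T-type and GIRK ratios behaved alike at E11.5. The geometric mean of Cacna1g over Cacna1h was 0.0617 in F/F against 0.214 in F/+, and that of Kcnj3 over Kcnj5 was 0.130 against 0.368. Neither pair of groups overlapped, and both tests gave p = 0.1, the smallest that an exact permutation of 3 against 3 allows. Beside these values, the summed FPKM of 6 atrial marker genes was higher in the E11.5 F/F hearts (2255 to 2646) than in F/+ (1713 to 1971), mainly through Myl4. The ventricular sum (5898 to 6354 against 4509 to 5219) and the endothelial and endocardial sum (364 to 383 against 300.04 to 338) were also higher without overlap, while the sinus venosus sums overlapped and haemoglobin genes took 10.4% to 29.7% of FPKM. Their part in the differences was not tested.

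At E16.5 the genotypes could not be told apart by any member. Of the 6 members tested, 0 were called, against 0.00935% of 10699 genes (0 and 2.63% at an unadjusted p under 0.05), all groups overlapped, and log2 differences ran from -0.11 for Hcn4 to 0.14 for Cacna1g. Mean Cacna1g was 8.92 FPKM (SD 1.74) in F/+ and 9.80 FPKM (SD 0.07) in F/F. The change of the genotype difference between the stages was 1.39 log2 units for Cacna1g (SE 0.33, limma adjusted p = 0.583) and 0.96 for Kcnj3 (SE 0.41, limma adjusted p = 0.999). Neither interaction passed the test, and 0.00875% of 11423 genes did. At an unadjusted p under 0.05 the shares were 2 of 6 members and 4.32% of genes.

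At 8 weeks the D/D libraries were set against all 7 controls and against the 5 +/+ libraries alone, comparisons that share samples. By limma 0 of 8 members were called in either comparison, as were 0% of 10249 genes; at an unadjusted p under 0.05 the first comparison held 1.71% of genes and 1 member, Kcnq1, and the second 1.01% and again Kcnq1. Kcnq1 measured 23.7 to 30.3 FPKM (median 27.4) in the controls and 12.6 to 29.99 (median 19.0) in D/D. Only D/D replicate 4 lay within the range of the controls, and the other 5 D/D libraries lay below it. The log2 difference was -0.44 (SE 0.15, 95% interval -0.76 to -0.11, limma adjusted p = 0.99993), and mean FPKM was 0.7504 of that in controls. Without the pair of libraries that stood far out it was -0.41, and within the 9 libraries with positive component scores it was -0.40. Against +/+ alone it was -0.40 (limma adjusted p = 0.99979).

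The other potassium channel genes also had lower means in D/D than in the controls, with groups that overlapped widely. The log2 differences were -0.46 for Kcnd2 (95% interval -1.05 to 0.12), -0.37 for Kcnj2 (-0.88 to 0.15), -0.29 for Kcnj3 (-0.91 to 0.33) and -0.21 for Kcnj5 (-0.72 to 0.29). None passed the test. Low values of Kcnj2, Kcnj3 and Kcnd2 fell in 3 libraries of both genotypes, those labelled +/+ replicate 5 and D/D replicates 5 and 6: there Kcnj3 measured 13.4, 8.34 and 15.6 FPKM, against 22.0 to 35.0 in the other 10. Within the libraries with positive scores the differences were -0.08 for Kcnd2, -0.08 for Kcnj3, -0.33 for Kcnj2 and -0.11 for Kcnj5. Hcn4 differed by 0.04 (-0.43 to 0.51), Cacna1g by -0.24 (-0.61 to 0.13) and Cacna1h by 0.11 (-0.77 to 0.98). The atrial marker sum varied from 28.25 to 480.0 FPKM among 8-week libraries of both genotypes.

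**Figure D4:**
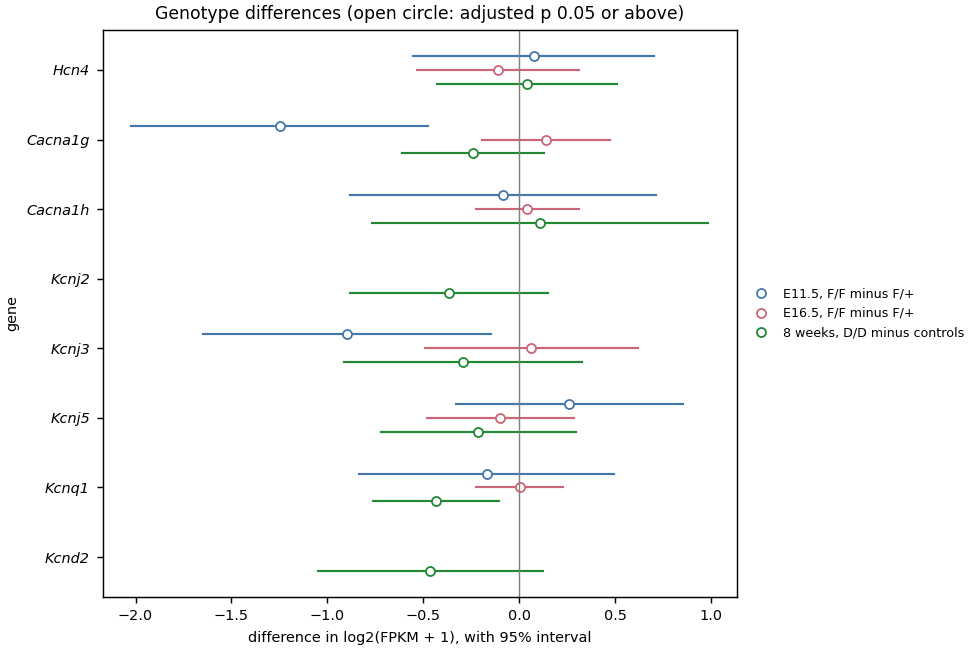
Difference in log2(FPKM + 1) between genotypes (x axis) for each gene (y axis), with 95% interval, at E11.5, E16.5 and 8 weeks; open circles did not pass a limma adjusted p of 0.05, and Kcnj2 and Kcnd2 were tested at 8 weeks only. All circles are open, and Cacna1g and Kcnj3 at E11.5 and Kcnq1 at 8 weeks have intervals that leave out 0.

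Single cells placed the members in cell types of the E11.5 heart. The +/+ library held 2563 barcodes and 38302758 UMIs (molecules counted by unique tags), and the F/F library 3469 barcodes and 51432290 UMIs, with medians of 13369 and 13403 per barcode. After filtering, 5871 cells formed 19 clusters, of which 4 were cardiomyocyte-like: ventricular (626 cells), trabecular (519), outflow (261), and atrial and sinus venosus (108). The names rest on marker lists and not on the members or the other channel genes, which were left out of the genes used for clustering. Members were sparse, from 36 UMIs for Hcn4 to 788 for Cacna1h, and intervals cover counting error only. Erythroid-like cells, which should lack these channels, gave the background: 0 to 0.561 CPM (UMIs of a gene scaled to the depth of the class) per member. That background differed between libraries for Cacna1h, with 2 UMIs in +/+ and 16 in F/F.

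Hcn4 was nearly confined to heart muscle, with 32 of 36 UMIs (88.9%, exact interval 73.9% to 96.9%) in the 4 cardiomyocyte-like clusters. Trabecular-like cells held 22 of them, at 2.73 CPM (exact Poisson interval 1.71 to 4.14), against 0.413 CPM (0.113 to 1.06) in ventricular-like cells. In trabecular-like cells 3.85% had an Hcn4 UMI, against 0.0911% of erythroid-like cells, with median depths of 15720 and 11352.5 UMIs. Atrial and sinus venosus-like cells gave 2.27 CPM from 3 UMIs (0.468 to 6.64), so their place in the order is not fixed at this depth. Thinned to 5000 UMIs per cell, trabecular-like cells kept 3 Hcn4 UMIs, or 1.22 CPM, and the 103 atrial and sinus venosus-like cells deep enough to keep also had 3, or 5.83 CPM.

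Cacna1h was found in all 4 heart muscle classes at E11.5, and Cacna1g was sparse. Cacna1h reached 42.4 CPM (32.0 to 55.0) in atrial and sinus venosus-like, 40.0 (33.9 to 46.8) in outflow-like, 28.3 (24.8 to 32.2) in trabecular-like and 25.4 (22.3 to 28.8) in ventricular-like cells. All other named classes had at most 3.63 CPM. The upper pair overlapped, as did the lower pair, and the outflow interval lay above both of the lower ones. After thinning, the atrial and sinus venosus-like value was 23.3 CPM. Cacna1g had 55 UMIs, only 16.4% of them in cardiomyocyte-like cells, with 0.393 CPM there (0.180 to 0.746) and 0.374 CPM (0.193 to 0.654) in erythroid-like cells. Epicardial-like cells, at 1.75 CPM (0.874 to 3.13), lay above that background, and the interval of mesenchymal-like cells, at 1.02 (0.555 to 1.70), overlapped it. An unnamed cluster led by Rgs5 had 2.86 CPM (0.927 to 6.67) from 5 UMIs in 161 cells.

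Among heart muscle classes Kcnj3 was highest in atrial and sinus venosus-like cells, and with both libraries summed so was Kcnj5. Kcnj3 reached 40.1 CPM there (30.05 to 52.5), against 6.19 (4.73 to 7.97) in ventricular-like, 3.10 (2.01 to 4.58) in trabecular-like and 0.784 (0.162 to 2.29) in outflow-like cells. These 108 cells, 1.84% of all, held 35.1% of Kcnj3 UMIs. Kcnj5 was more even: 33.3 CPM (24.2 to 44.7) in atrial and sinus venosus-like, 16.6 (13.9 to 19.7) in trabecular-like, 14.4 (12.2 to 17.05) in ventricular-like and 11.2 (8.13 to 15.1) in outflow-like cells. The Kcnj5 level in atrial and sinus venosus-like cells rested on the F/F library, at 41.5 CPM (29.4 to 57.0) from 38 UMIs. In the +/+ library it was 14.8 CPM (5.42 to 32.2) from 6 UMIs, beside 14.5 in trabecular-like and 13.8 in ventricular-like cells, and thinned to 5000 UMIs per cell it was 0. A small megakaryocyte-like cluster of 31 cells also held 18 Kcnj5 UMIs, or 35.8 CPM (21.2 to 56.6), while Kcnj3 had 0 UMIs there; this cluster was singled out after its values were seen. Of its cells, 41.9% had a Kcnj5 UMI, against 0.455% of erythroid-like cells.

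Unlike the other potassium channel members, Kcnj2 had most of its UMIs outside cardiomyocyte-like cells at E11.5, with 12.6% in them. Endothelial and endocardial-like cells held 122 of 246 (49.6%), at 21.3 CPM (17.7 to 25.5), mesenchymal-like cells had 5.51 CPM (4.34 to 6.90), and cardiomyocyte-like cells together had 1.35 CPM (0.920 to 1.92). Within the endothelial and endocardial-like class, the cluster led by Klf2, a flow-responsive gene, had 32.1 CPM (25.8 to 39.5) and the cluster led by Emcn and Plvap 10.95 (7.49 to 15.5). Among heart muscle classes outflow-like cells were highest, at 4.18 CPM (2.39 to 6.79), and atrial and sinus venosus-like cells had 0 UMIs (at most 2.79 CPM by the exact interval). The sums in 8-week cardiomyocytes, by contrast, came from isolated muscle cells, and the libraries cannot be set on a common scale.

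Kcnq1 and Kcnd2 were heart muscle genes with different ranges. Kcnq1 had 125 of 146 UMIs in cardiomyocyte-like cells, at 7.58 CPM (5.07 to 10.9) in outflow-like, 5.59 (4.08 to 7.48) in trabecular-like and 4.75 (3.48 to 6.33) in ventricular-like cells, which overlap, and 2.62 (1.47 to 4.32) in endothelial and endocardial-like cells. Kcnd2 had 48 of 50 UMIs in cardiomyocyte-like cells, with 5.30 CPM (2.13 to 10.9) in atrial and sinus venosus-like, 3.35 (2.21 to 4.88) in trabecular-like and 1.44 (0.790 to 2.42) in ventricular-like cells. Outflow-like cells had 0 Kcnd2 UMIs in 261 cells (at most 0.964 CPM by the exact interval). Thinning left no Kcnd2 UMI in atrial and sinus venosus-like cells.

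**Figure D5:**
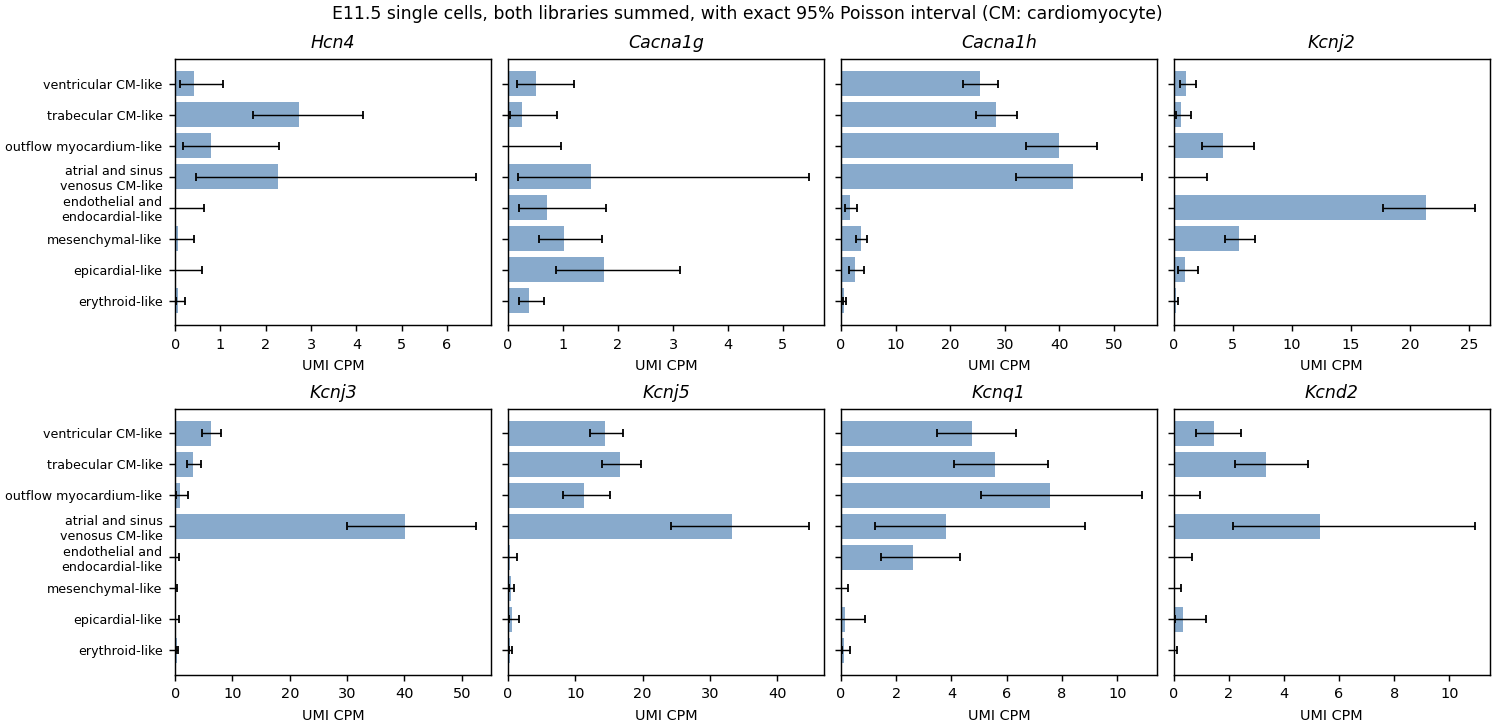
CPM from UMIs (x axis, from 0, scale differing by panel) of the 8 channel genes in 8 cell classes (y axis) of the E11.5 heart, both libraries summed; bars give the level and black lines the exact 95% Poisson interval. Kcnj3 stands out in atrial and sinus venosus-like cells (40.1 CPM), Kcnj2 in endothelial and endocardial-like cells (21.3 CPM), and Cacna1h in all 4 heart muscle classes.

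With 1 library per genotype the single-cell values have no replicate check, and they compare the libraries as labelled. In cardiomyocyte-like cells the ratio of F/F to +/+ was 1.005 for Cacna1h (exact interval 0.860 to 1.18; 411 and 272 UMIs), 1.04 for Kcnj3 (0.733 to 1.49), 1.30 for Kcnj5 (1.04 to 1.63), 0.720 for Kcnq1 (0.499 to 1.04) and 1.46 for Kcnd2 (0.773 to 2.90). Hcn4 had a ratio of 0.348 (0.152 to 0.756), from 11 UMIs in F/F and 21 in +/+, and Cacna1g one of 0.333 (0.0538 to 1.56), from 3 and 6 UMIs. The ratio of Kcnj2 was 1.63 (0.719 to 4.01). In trabecular-like cells alone the Hcn4 ratio was 0.541 (0.197 to 1.38), from 8 UMIs in F/F and 14 in +/+. In atrial and sinus venosus-like cells the Kcnj5 ratio was 2.81 (1.18 to 8.13) from 38 UMIs in F/F and 6 in +/+. The mix of clusters differed between the libraries, with ventricular-like cells making up 422 of 932 cardiomyocyte-like cells in F/F and 204 of 582 in +/+. In the bulk E11.5 hearts Hcn4 differed by 0.08 log2 units between F/F and F/+ (95% interval -0.55 to 0.70), a comparison with heterozygous and not wild-type controls. For Kcnj2 in endothelial and endocardial-like cells the ratio was 0.619 (0.426 to 0.897) from 58 and 64 UMIs. Over the 10663 genes that reached 20 UMIs in both libraries the log2 ratio in cardiomyocyte-like cells had a median of -0.05, and 95% of genes lay between -0.62 and 0.43. The values of Kcnj5 (0.38), Kcnq1 (-0.47), Cacna1h (0.0069) and Kcnj3 (0.056) lay inside that range. Those of Hcn4 (-1.52), Cacna1g (-1.59), Kcnj2 (0.70) and Kcnd2 (0.55) lay outside it. These genes did not reach 20 UMIs in both libraries, so the range does not apply to them.

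Genes with the most similar course were named by Pearson's r, as a description across samples that share stage and isolation. Over the 25 bulk libraries Kcnq1 was closest to Ckm (r = 0.97), the creatine kinase gene of muscle, then Carns1 and Mpc1. Kcnj3 was closest to Tnni3k (0.96), then Rgs4 and Mylk4, Kcnd2 to Ank2 (0.95), then Ppm1l and Mterf2, and Kcnj2 to Ralgapa2 (0.95), then Abcc9 and Rgs6. Cacna1h was closest to Rnps1 (0.95), then Raver1 and Tubb6, Kcnj5 to Ralgapb (0.93), then Sel1l and Oxsr1, Cacna1g to Wif1 (0.88), then Col15a1 and Rapsn, and Hcn4 to Top3b (0.86), then Chid1 and Syt11. Among the members themselves the highest correlation was that of Kcnj3 with Kcnd2 (0.89) and the lowest that of Cacna1h with Kcnj3 (-0.85).

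Over 32 sums of cluster and library in the E11.5 single cells the neighbours were other genes. Cacna1h was closest to Ndrg4 (0.97), then Myl9 and Actc1, and Kcnj5 to Ftcd, Ttn and Csrp3 (0.96 each). Kcnj3 was closest to Gm15543 (0.94), then Rxfp1 and Tmem163, and Kcnd2 to Tmem163 (0.93), then Gm15543 and Gja5. Kcnj2 was closest to Nfatc1 (0.91), a gene of the endocardium, then Cxcl16 and Adcy4. Kcnq1 was closest to Apobec2 (0.89), then Ablim1, Cacna1g to Socs2 (0.80), then Ephb2 and Pcdh18, and Hcn4 to Trim54 (0.75), then Frmd5 and Rtn4rl1.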

How the data were processed

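Bulk values were deposited as 1 normalized table, taken as FPKM from the labels and its values, since the table names no unit. The submitters' processing notes name CASAVA, TopHat, TopHat2 2.0.11 and mm9 for bulk and Cell Ranger and mm10 for single cells; the counting program and annotation are not given in the sources used here. Single-cell files hold UMI counts as deposited by the authors.

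The members and lists were chosen with earlier results of these data known. Lines of 270 repeated symbols were merged, and 1 gene was dropped because a value was blank. log2(FPKM + 1) was fitted with limma 3.58.1 (R 4.3.3, trend) for genes whose mean in the fitted libraries reached 1 FPKM, with Benjamini-Hochberg adjustment over all genes tested and a threshold of 0.05. Fold changes on this scale understate low genes. In simulated data with the E11.5 genotype design (11302 genes), 18% of genes changed by 1 log2 unit and 77% of those changed by 2 were recovered; for the 8-week genotype design (10120 genes) the shares were 78% and 94%. All members were named, with at most 4 called list genes per direction and comparison, by size of change, and up to 3 genes per member by likeness; some genes these rules would name are not reported here.

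Barcodes with at least 500 genes were kept, 148 presumed doublets were removed by score (Scrublet's own threshold marked 34 of 6019), and cells were clustered with scanpy 1.11.5 (Leiden resolution 1) on 1992 variable genes without channel genes. Cells were thinned to 5000 UMIs as a check on depth. Intervals are exact 95% Poisson or binomial intervals.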

Additional observations from a re-analysis of the deposited data

Results flagged for a closer look

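In a group of 4 to 10 libraries, a highest or lowest value was singled out when its gap to the next was large for the group's range by Dixon's 95% criterion. Of 20 groups of member values examined, 2 held such a library, and chance gives about 1 in 20. Kcnj2 in 8-week +/+ cardiomyocytes was low in the library labelled replicate 5, at 1.22 FPKM against 4.34 to 5.17 FPKM in the others; this library was also listed at 0 for Hand2as. Kcnj5 in D/D cardiomyocytes was low in replicate 6, at 7.26 FPKM against 15.7 to 18.8 FPKM in the others. These are the libraries that stood far from the rest along the first principal component.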

How the results depend on the processing

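Of 1220 member differences recomputed in bulk, 1145 kept their direction and side of the threshold, 51 changed sign, 16 lost a call and 8 gained one. No member was called between genotypes except Cacna1g at E11.5 with all 25 libraries in a single fit. In that fit the number of genes called at E11.5 was 24 and the interaction's 6, in place of 1 each. With a pseudocount of 0.1, 2 genes were called at E16.5 and 2 for the interaction, and without the filter on low values 3 for the interaction. Leaving out 1 library at a time gave 1 to 2 genes at E11.5, 0 to 2 at E16.5 and 1 to 9 for the interaction, the last without E11.5 F/+ replicate 3. The cause was not tested.

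Differences that changed sign were small. For Cacna1h between embryonic stages, median-ratio and upper-quartile scaling gave 0.039 and 0.085 in F/+, and 0.17 and 0.26 in F/F. For Kcnq1 they gave -0.0088 and -0.023 between genotypes at E16.5, and 0.27 and 0.17 for the D/D step. For D/D against controls, a term for the set of libraries with positive or negative component scores gave -0.19 for Cacna1h, 0.0061 for Kcnj3 and 0.028 for Kcnj5, and against +/+ alone 0.036 for Kcnj3 and 0.035 for Kcnj5. Leaving out the far pair, a choice made after seeing the data, gave -0.047 for Cacna1h.

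Leaving out 1 library at a time moved the E11.5 genotype difference of Hcn4 from -0.16 to 0.37 and of Cacna1h from -0.36 to 0.28. At E16.5 the ranges were -0.28 to 0.070 for Hcn4, -0.0083 to 0.25 for Cacna1g, -0.041 to 0.12 for Cacna1h, -0.13 to 0.30 for Kcnj3, -0.24 to 0.0062 for Kcnj5 and -0.057 to 0.054 for Kcnq1. For D/D against controls they were -0.090 to 0.25 for Hcn4 and -0.15 to 0.38 for Cacna1h, and against +/+ -0.069 to 0.27 for Hcn4, -0.27 to 0.17 for Cacna1h, -0.41 to 0.032 for Kcnj3 and -0.37 to 0.019 for Kcnj5. Between embryonic stages they were -0.41 to 0.15 for Cacna1h in F/+, -0.40 to 0.24 for Cacna1h in F/F and -0.19 to 0.29 for Kcnj3 in F/F. For the interaction they were -0.48 to 0.054 for Hcn4 and -0.24 to 0.40 for Cacna1h.

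Replicate numbers did not pair the samples: deviations of same-numbered embryonic libraries correlated at -0.43 to 0.08 and those of the 5 same-numbered +/+ and D/D pairs at -0.11 to 0.53, with 3 of 5 above 0.1. With a replicate block the number of genes called was 2 at E11.5, 1 at E16.5 and 0 at 8 weeks, 5432 and 5510 between embryonic stages in F/+ and F/F, 8013 and 8093 for the +/+ and D/D steps, and 1 for the interaction. Under the block the D/D difference from controls was -0.25 for Cacna1h and 0.044 for Kcnj5, and the Kcnj5 difference from +/+ was 0.019. The Hcn4 rise in the D/D step was called under the block (0.54, limma adjusted p = 0.0265), and no other member call changed.

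In single cells thinned to 5000 UMIs, Hcn4 in trabecular-like cells was at 1.22 CPM, Cacna1h in atrial and sinus venosus-like cells at 23.3 CPM and Kcnd2 in the latter at 0. Read depth of the bulk libraries is unknown, and 1 library per genotype leaves the single-cell contrasts without a replicate check.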
